A study of Mus musculus with 6 samples.

Results

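Lgr5, Sox9, Lhx2, Tbx1, Sfrp1 and Id4 are genes of hair follicle stem cells, and they were followed here in keratinocytes of mouse skin. These 6 genes, of 16158 measured, are followed by name, and they were chosen with earlier results of these data known. Their values were read in cells that carried at least 50 unique molecular identifiers (UMIs, each marking 1 captured RNA molecule) of Krt5, Krt14 and Krt15 per 10000 UMIs of the cell and none of Ptprc, the leukocyte antigen CD45. Krt5 and Krt14 are keratins of basal keratinocytes, and Krt15 is a keratin enriched in the bulge. This gate kept 7140 of 21178 cells.

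The cells came from 6 mice of the strain NINJA, 6 to 12 weeks old, with 4-OH-Tam applied to the skin that was sampled, and each mouse gave 1 library of the 10x Genomics 5′ kit. The strain carries a model antigen that is switched on by recombination. There were 3 groups of 2 mice: NO_AG (antigen off), AG (antigen on) and AG_CPI (antigen on, with the treatment that the labels call CPI and do not spell out). According to the labels, the skin pathology of every mouse and the P14 CD8 T cells recovered from its skin had been checked before sequencing. The labels name neither the promoter that drives recombination nor the cells in which the antigen is switched on.

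The hair follicle is renewed in cycles by stem cells of the bulge and of the hair germ below it, which rest for long periods and are woken by Wnt signals against a background of bone morphogenetic protein (BMP) signals. Lgr5 is a receptor for R-spondins that strengthens Wnt signalling, and Sfrp1 is a secreted protein that binds Wnt ligands and restrains them. Sox9, Lhx2 and Tbx1 are transcription factors of follicle stem cells, and Id4 is a helix-loop-helix protein that lacks a DNA-binding domain and blocks basic helix-loop-helix factors.

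In mm10, with GENCODE vM21 gene models, Lgr5 lies at chr10:115450311-115587780 on the minus strand and Sfrp1 at chr8:23411502-23449632 on the plus strand. Sox9 lies at chr11:112782224-112787760 (plus), Lhx2 at chr2:38339281-38369733 (plus), Tbx1 at chr16:18580979-18590671 (minus) and Id4 at chr13:48261228-48266026 (plus). The 6 genes are thus on 6 different chromosomes, and no member is a neighbour of another. To set the promoters of the members side by side, the letters upstream of their start sites are shown for the members that have an entry in the RefSeq promoter table, of build GRCm38.p6. That table held 3 of the 6 members, with 5 windows of 250 bases upstream of a start site, 1 for Id4 and 2 each for Lhx2 and Tbx1. For each gene the window farthest upstream is printed. It is written 5′ to 3′ on the strand of its gene, and capitals mark 3 motifs on either strand. These are the GC box, with the letters GGGCGG, the TCF/LEF motif, with the letters CTTTG, and the box that is named by its letters, CCAAT.
Id4, chr13:48260866-48261115, plus strand: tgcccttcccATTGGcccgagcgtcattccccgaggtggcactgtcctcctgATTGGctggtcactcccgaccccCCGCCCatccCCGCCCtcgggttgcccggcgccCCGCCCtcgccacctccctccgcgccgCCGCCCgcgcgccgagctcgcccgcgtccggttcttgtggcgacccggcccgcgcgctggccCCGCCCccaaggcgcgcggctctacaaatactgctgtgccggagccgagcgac
Lhx2, chr2:38339031-38339280, plus strand: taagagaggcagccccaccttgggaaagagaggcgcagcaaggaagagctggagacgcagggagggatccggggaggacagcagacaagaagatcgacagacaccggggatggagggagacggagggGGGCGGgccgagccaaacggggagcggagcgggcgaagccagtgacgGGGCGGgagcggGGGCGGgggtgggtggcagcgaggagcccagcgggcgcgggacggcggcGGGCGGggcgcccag
Tbx1, chr16:18590672-18590921, minus strand: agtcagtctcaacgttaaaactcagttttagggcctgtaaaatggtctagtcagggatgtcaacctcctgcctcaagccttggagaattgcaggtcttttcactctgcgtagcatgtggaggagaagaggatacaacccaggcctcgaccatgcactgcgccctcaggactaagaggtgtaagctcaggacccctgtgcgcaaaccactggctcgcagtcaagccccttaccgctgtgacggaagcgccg

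The Id4 window was 75.6% G and C, with 5 GC boxes and 2 CCAAT boxes. The Lhx2 window was 72.8% G and C, with 4 GC boxes, and the Tbx1 window was 54.4% G and C, with none of the 3 capitalised motifs. The windows that are not printed differed from these. The second Lhx2 window, chr2:38351058-38351307, was 68.4% G and C, with no GC box and 1 TCF/LEF motif, and the second Tbx1 window, chr16:18588900-18589149, was 67.2% G and C, with 1 GC box. Over all 32851 windows of the same length in the table, the median was 52.4% G and C. On either strand, 32.7% of them held a GC box, 33.8% a CCAAT box and 48.6% a TCF/LEF motif. Of the other motifs searched, an E-box (CANNTG) was present once in the Tbx1 window shown and in 66.2% of all windows. The SOX motif (ACAAT), the LIM homeodomain motif (TAATTA) and the TATA box (TATAAA) were in none of the 5 windows, against 27.7%, 4.84% and 12.4% of all windows. A match is a run of letters and not a site shown to be bound.

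The libraries held 5903724 to 24656382 UMIs in 1736 to 4972 cells. The gate held 2287 and 1822 cells of the NO_AG mice, 941 and 1688 of the AG mice, and 149 and 253 of the AG_CPI mice. Gated cells had a median of 5174 and 5856.5 UMIs in the NO_AG mice, 6830 and 2478 in the AG mice, and 3629 and 2745 in the AG_CPI mice. AG mouse 2 stood apart, since 60.0% of its gated cells had under 3000 UMIs and 606 of them carried a UMI of a Cd3 gene. The share under 3000 UMIs was 38.9% and 51.8% in the AG_CPI mice and 13.0% to 17.2% in the other 3. AG_CPI mouse 1 stood apart from the other 5 mice in its sex-linked RNA (values in the closing section). Results are therefore also given without each of these mice where they rest on them. Any pair of libraries shared 5 to 35 cell barcodes. The level of Krt15, which is part of the gate, was 64.8 and 59.6 UMIs per 10000 in the NO_AG mice, 31.8 and 9.99 in the AG mice, and 17.1 and 16.7 in the AG_CPI mice.

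Cd34 and Postn, which are not members, were read in the gated cells as markers of the bulge. A UMI of one of them was present in 36.4% and 34.9% of the gated cells of the NO_AG mice, 52.3% and 30.9% of the AG mice, and 40.3% and 37.2% of the AG_CPI mice. In T cells of the same libraries, the background of free RNA, the share was 0.103% to 1.51%. Most of these cells were marked by Postn, since Cd34 alone was present in 1.98% to 9.39% of gated cells. UMIs of Krt79 or Lrig1, which mark the upper follicle, were present in 49.7% to 75.2% of gated cells and in 4.21% to 18.3% of T cells. Cells are called bulge-marked or upper-follicle-marked below by these UMIs alone, and a marked cell is not thereby shown to be of that type.

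Outside keratinocytes the 6 genes were near zero in leukocytes. In T cells, at 947 to 1425 cells per mouse with a median of 2385 to 2843 UMIs, a UMI was present in at most 0.323% of cells for Lgr5, 2.35% for Sox9, 1.65% for Lhx2, 1.13% for Tbx1, 1.85% for Sfrp1 and 0.824% for Id4. In other leukocytes no member reached more than 2.37% of cells. These shares serve as the background of free RNA, and the share in gated keratinocytes was above that of T cells for all 6 genes in all 6 mice. Fibroblasts and endothelial cells reached 20 cells in only 2 mice each, and there Sfrp1 stood at 1.12 and 1.14 UMIs per 10000 in fibroblasts, while Tbx1 stood at 2.41 and 0.0877 in endothelial cells. Cells that fitted none of these classes, 292 to 1382 per mouse, also carried the members outside the gate. A UMI was present in 5.14% to 25.0% of them for Sox9, 2.40% to 17.3% for Lhx2 and 2.96% to 14.4% for Sfrp1. The shares were 2.40% to 12.4% for Tbx1, 0.685% to 9.59% for Id4 and 0.685% to 5.86% for Lgr5.

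How the members differed between the antigen groups was the main comparison of the study's design. Levels are means over the gated cells of a mouse, in UMIs per 10000. All 6 genes had their highest group mean in NO_AG, an intermediate mean in AG and the lowest mean in AG_CPI, an order that 28.4% of all 8364 genes tested also had. No difference passed the test in any of the 3 comparisons (limma on log2(level + 0.1), Benjamini-Hochberg adjustment over 8364 genes). Where 2 mice are set against 2, an exact permutation test of a gene cannot go below p = 0.33. The p-values measure the spread between mice, of which each group had 2.

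Lgr5, the R-spondin receptor, stood at 0.428 and 0.526 in the NO_AG mice, 0.271 and 0.241 in the AG mice, and 0.0579 and 0.294 in the AG_CPI mice. Both NO_AG mice were above the other 4, while the AG_CPI mice lay on either side of the AG mice. The lowest value rested on 6 UMIs in 4 of 149 cells. A UMI of Lgr5 was present in 12.1% and 16.0% of gated cells in the NO_AG mice, 8.08% and 6.81% in the AG mice, and 2.68% and 7.11% in the AG_CPI mice. The 95% Wilson interval of the lowest share ran from 1.05% to 6.70%. Because a deeper cell shows more genes, the share to be found with 1500 UMIs drawn from every cell was also computed. On that footing Lgr5 would be present in 5.30% and 6.46%, 3.36% and 3.12%, and 0.779% and 3.67% of cells, in the same order of mice.

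Sfrp1, the secreted Wnt inhibitor, stood at 1.82 and 3.07 in the NO_AG mice, 1.65 and 1.40 in the AG mice, and 0.793 and 0.620 in the AG_CPI mice. The 3 groups did not overlap. Cells with an Sfrp1 UMI made up 30.3% and 40.8% of the gate in the NO_AG mice, 30.8% and 22.3% in the AG mice, and 24.8% and 18.2% in the AG_CPI mice. Within those cells the mean level was 6.76 ± 1.07 (SD, n = 2) in NO_AG, 5.82 ± 0.660 in AG and 3.30 ± 0.152 in AG_CPI. For the other members the ratio of AG_CPI to NO_AG within positive cells lay between 0.831 and 1.05, while for Sfrp1 it was 0.489. A positive cell holds at least 1 UMI, which is a higher level in a shallower cell. Gated AG_CPI cells had fewer UMIs by median than NO_AG cells. The Sfrp1 values of the AG_CPI mice rested on 54 UMIs in 37 cells and 82 UMIs in 46 cells. The part of depth in these ratios was not tested. With 1500 UMIs drawn from every cell, the share of positive cells would also differ. Its ratio of AG_CPI to NO_AG was 0.508 for Sfrp1 and 0.246 to 0.784 for the other members.

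Sox9 was the member detected in the most cells. Its level was 2.49 and 3.0 in the NO_AG mice, 2.59 and 1.81 in the AG mice, and 1.78 in both AG_CPI mice. The NO_AG and AG mice overlapped. A Sox9 UMI was present in 43.9% and 50.1% of gated cells in the NO_AG mice, 51.8% and 35.7% in the AG mice, and 38.9% and 34.8% in the AG_CPI mice.

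Lhx2, a LIM homeodomain factor, stood at 0.836 and 1.31 in the NO_AG mice, 0.780 and 0.474 in the AG mice, and 0.223 and 0.454 in the AG_CPI mice. Its groups did not overlap, although the lowest AG mouse and the highest AG_CPI mouse differed by little. Lhx2-positive cells made up 18.8% and 31.0%, 15.4% and 12.6%, and 5.37% and 9.09% of the gate. With 1500 UMIs drawn from every cell these shares would be 9.49% and 14.8%, 8.17% and 5.88%, and 2.73% and 5.15%.

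Tbx1, a T-box factor, stood at 0.796 and 1.18 in the NO_AG mice, 0.728 and 0.451 in the AG mice, and 0.482 and 0.516 in the AG_CPI mice. Both NO_AG mice were above the rest, and the AG_CPI mice lay within the range of the AG mice. A Tbx1 UMI was present in 19.5% and 29.0%, 18.5% and 11.3%, and 13.4% and 13.8% of gated cells.

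Id4, the inhibitor of helix-loop-helix factors, stood at 0.563 and 0.791 in the NO_AG mice, 0.418 and 0.238 in the AG mice, and 0.147 and 0.126 in the AG_CPI mice. The 3 groups did not overlap, and the AG_CPI mean was 0.202 of the NO_AG mean. Id4-positive cells made up 13.9% and 21.2%, 10.7% and 6.93%, and 4.03% and 4.35% of the gate, where the share in AG_CPI mouse 1 rested on 7 UMIs in 6 cells.

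**Figure D1:**
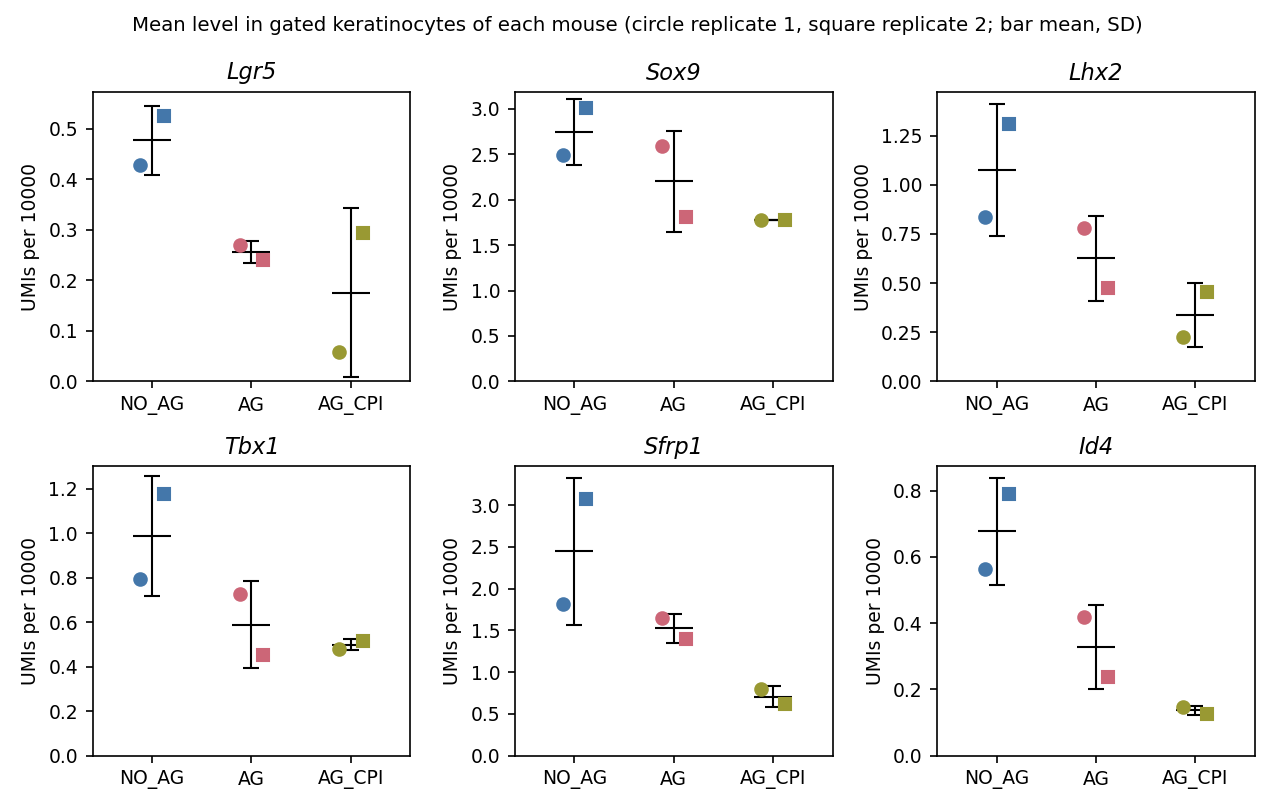
Level of each member (UMIs per 10000 UMIs of a cell, mean over gated keratinocytes) in each of the 6 mice, by group. Points are mice, long bars are group means and error bars are the SD of 2 mice. For Sfrp1, Lhx2 and Id4 the 3 groups do not overlap, and for Sox9 the NO_AG and AG mice do.

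Antigen on against antigen off gave a fitted level below that of NO_AG for all 6 genes, as for 50.4% of all genes. The log2 differences were −0.79 for Id4 (SE 0.255, adjusted p = 0.462), −0.62 for Lgr5, −0.61 for Lhx2, −0.58 for Tbx1, −0.51 for Sfrp1 and −0.23 for Sox9. None of the 6 passed, where 0.466% of all 8364 genes did. For 5 of the 6, all but Sox9, both AG mice were below both NO_AG mice, which also held for 31.3% of all genes. At an unadjusted p under 0.05 there was 1 member, Id4, beside 7.78% of all genes. The median of the 6 was −0.59, beside −0.003 over all genes tested. Without AG mouse 2 the differences were −0.45 for Id4, −0.53 for Lgr5, −0.26 for Lhx2, −0.25 for Tbx1, −0.37 for Sfrp1 and 0.06 for Sox9. In gated cells with at least 3000 UMIs, an alternative chosen after seeing the data, they were −0.71, −0.41, −0.36, −0.35, −0.26 and −0.03 in the same order.

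Antigen on with CPI against antigen on alone, which share the AG mice with the comparison above, gave fitted differences from −1.02 for Sfrp1 and −0.84 for Id4 to −0.18 for Tbx1. Lhx2 differed by −0.76, Lgr5 by −0.53 and Sox9 by −0.28, so that all 6 were below 0, as were 53.7% of all genes. None of the 6 passed (adjusted p 0.583 to 0.868). No gene of the 8364 passed by limma either (0% of all), while 692 (8.27%) had an unadjusted p under 0.05. Both AG_CPI mice were below both AG mice for 4 of the 6 genes (Sox9, Lhx2, Sfrp1 and Id4), beside 17.3% of all genes. Without AG_CPI mouse 1 the difference was −1.21 for Sfrp1, −0.92 for Id4, −0.40 for Lhx2, −0.31 for Sox9, −0.17 for Tbx1 and 0.12 for Lgr5. Without AG mouse 2 it was −1.17 for Sfrp1, −1.18 for Id4, −1.10 for Lhx2, −0.57 for Sox9, −0.51 for Tbx1 and −0.62 for Lgr5, and none passed (adjusted p 0.275 to 0.631).

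Antigen on with CPI against antigen off, which shares mice with both comparisons above, held the widest differences. Id4 differed by −1.63 (SE 0.255, 95% interval −2.23 to −1.03, adjusted p = 0.0628) and Sfrp1 by −1.54 (SE 0.253, 95% interval −2.13 to −0.94, adjusted p = 0.0709). Lhx2 differed by −1.37 (SE 0.331), Lgr5 by −1.14 (SE 0.380), Tbx1 by −0.76 (SE 0.254) and Sox9 by −0.51 (SE 0.215), at adjusted p-values of 0.158 to 0.345. None of the 6 passed, where 0.263% of all genes did. All 6 had both AG_CPI mice below both NO_AG mice, as did 33.2% of all genes, and all 6 had an unadjusted p under 0.05, as did 14.5% of all genes. Without AG_CPI mouse 1 the differences were −1.72 for Id4 and for Sfrp1 (adjusted p = 0.15 for both), −1.0 for Lhx2, −0.75 for Tbx1, −0.54 for Sox9 and −0.50 for Lgr5. Both AG mice enter this comparison through the shared estimate of the spread, and without AG mouse 2 the difference of Id4 was −1.63.

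The call on Id4, Sfrp1 and Lhx2 in that comparison depended on the processing. In gated cells with at least 3000 UMIs the adjusted p was 0.0187 for Id4, 0.0245 for Sfrp1 and 0.0248 for Lhx2, and the difference of Id4 was −2.01. With UMIs summed over the gate in place of a mean over cells it was 0.020, 0.0267 and 0.0398. Over 19 alternatives all 6 genes kept a difference below 0, the side on which 52.1% of all genes lay, while Id4 passed in 5, Sfrp1 in 3, Lhx2 in 2 and the others in none.

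**Figure D2:**
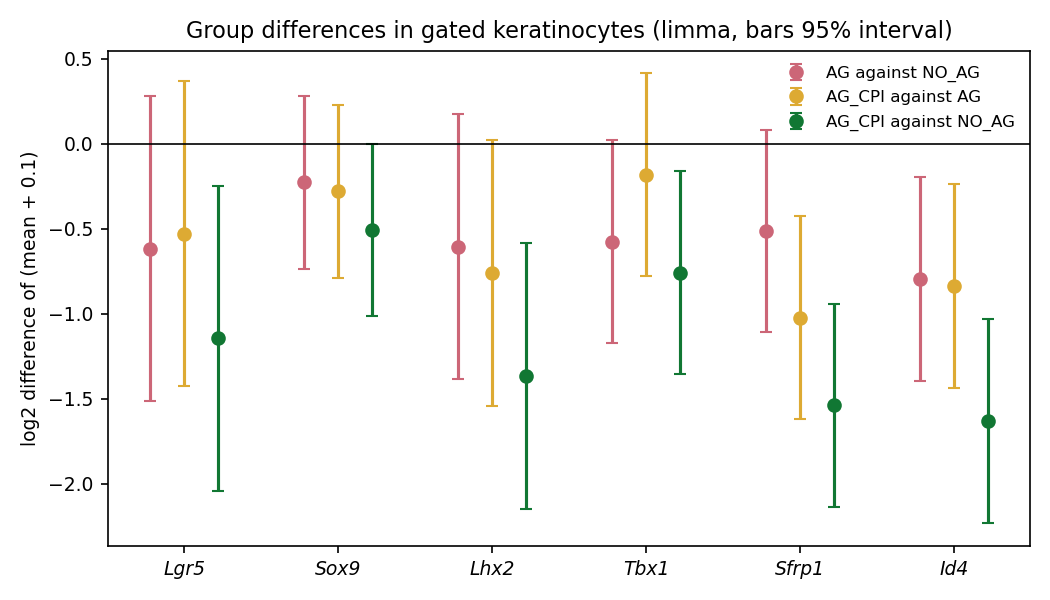
Fitted log2 differences of the 6 members between groups (points, with 95% confidence intervals) on the log2(level + 0.1) scale, for the 3 comparisons. No difference passes the test over all genes; those of AG_CPI against NO_AG run from −0.51 for Sox9 to −1.63 for Id4.

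Some other measures of the gate also moved with the groups. The sums of myeloid and of mural cell markers and the share of cells in the gate set both NO_AG mice apart from the rest. The T cell, fibroblast, melanocyte and mitochondrial values overlapped between groups. Myeloid markers (Lyz2, C1qa, C1qb, Csf1r and Cd74) summed to 3.03 to 3.85 UMIs per 10000 in NO_AG, 5.74 to 16.3 in AG and 8.57 to 12.1 in AG_CPI, with UMIs of all 5 genes in every mouse. Cd74 is also on the list of class I presentation and interferon genes that is read below. T cell markers summed to 0.839 to 1.30, 0.948 to 3.01 and 1.28 to 2.34. Mural cell markers summed to 0.881 to 1.52, 0.334 to 0.591 and 0.297 to 0.365, with UMIs of 2 or 3 of the 4 genes in a mouse, and both NO_AG mice were above the other 4. Fibroblast markers summed to 0.121 to 1.53, 0.174 to 0.646 and 0.0401 to 0.0919, where 1 or 2 of 5 genes had a UMI in the AG_CPI mice. Melanocyte markers summed to 0.904 to 1.07, 0.228 to 0.486 and 0.00456 to 1.14. The mean share of mitochondrial UMIs was 4.36% and 4.39% in the NO_AG mice, 4.32% and 7.08% in the AG mice, and 5.94% and 6.86% in the AG_CPI mice. The gate also made up 46.0% and 44.5% of cells in the NO_AG mice, 26.9% and 36.2% in the AG mice, and 8.58% and 11.5% in the AG_CPI mice. The part of these measures in the levels of the 6 genes was not tested, apart from the counts given without cells that carried other-type markers, where Id4 (adjusted p = 0.0456) and Sfrp1 (0.0388) passed.

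Genes of the pathways around the 6 members were read in the same fits. Of 25 Wnt pathway genes tested, 11 BMP genes, 6 Hedgehog genes, 9 upper follicle genes and 4 hair germ genes, none passed in any of the 3 comparisons. The median of the Wnt list was −0.20 in AG against NO_AG, 0.04 in AG_CPI against AG and −0.09 in AG_CPI against NO_AG. Among 9 bulge genes, Runx1, a transcription factor of the follicle, rose in AG_CPI against NO_AG, while the list had a median of −0.23. Its levels were 0.479 and 0.345 in the NO_AG mice, 0.646 and 0.832 in the AG mice, and 1.55 and 1.44 in the AG_CPI mice, where the groups did not overlap. The log2 difference was 1.72 (SE 0.206, adjusted p = 0.0311), and it passed in 13 of 19 alternatives. The call was lost without NO_AG mouse 1, and also without AG_CPI mouse 1 or 2. Over the alternatives the difference ran from 1.18 to 1.95.

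The same cells showed the antigen groups in other genes. Of 23 tested genes of class I presentation and the interferon response, 9 rose and none fell in AG against NO_AG, with a median of 1.31. The 4 with the smallest p were Isg15 (3.80), Rtp4 (2.86), Ifi27l2a (3.61) and Cxcl9 (3.38), which are interferon-induced genes, the last one a T cell-attracting chemokine. This count was 3 without AG mouse 2, 4 without either NO_AG mouse, and 6 to 9 without another mouse. In AG_CPI against NO_AG the 4 genes that rose were Rtp4 (2.17), Isg15 (2.20), Ifi27l2a (2.31) and Cxcl9 (2.82), a count that was 1 without AG_CPI mouse 1, 2 without AG_CPI mouse 2 and 0 without NO_AG mouse 1. Of 7 suprabasal genes 1 rose and none fell in AG against NO_AG, with a median of 0.39. It was Krtdap, a gene of differentiating keratinocytes, which rose by 1.69 (adjusted p = 0.0492, passed in 9 of 19 alternatives). The call on Krtdap was lost without AG mouse 2, and its difference ran from 1.42 to 1.97 over the alternatives. For 7 stress keratin genes the median difference from NO_AG was 1.92 in AG and 2.75 in AG_CPI, but none passed.

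Within the gate, the members were set against Cd34 and Postn, which mark the bulge. In each mouse the cells with a UMI of either gene were compared with the other gated cells. Lgr5 was higher in bulge-marked cells in 6 of 6 mice and passed the test. Lhx2 was higher in 6 of 6, Sfrp1, Tbx1 and Sox9 in 5 of 6, and Id4 in 4 of 6, and these 5 did not pass.

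Lgr5 stood at 0.656 in marked against 0.298 in other cells of NO_AG mouse 1, and at 0.922 against 0.314 in NO_AG mouse 2. In the AG mice it stood at 0.307 against 0.232 and at 0.423 against 0.159. In the AG_CPI mice it stood at 0.132 against 0.00805 and at 0.389 against 0.238. The log2 difference was 0.84 (SE 0.143, 95% interval 0.50 to 1.18, adjusted p = 0.0328). Over all genes 2.93% passed and 1.27% passed as higher in marked cells, while 5.87% were higher in all 6 mice.

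Lhx2 stood at 1.29 against 0.575 and 2.04 against 0.919 in the NO_AG mice, 0.866 against 0.685 and 0.928 against 0.271 in the AG mice, and 0.368 against 0.126 and 0.519 against 0.416 in the AG_CPI mice. Its difference was 0.84 (SE 0.171, adjusted p = 0.0561). Sfrp1 stood at 5.25 against 1.90 in NO_AG mouse 2, and only AG_CPI mouse 1 had less in marked cells, at 0.773 against 0.807. Its difference was 0.91 (SE 0.189, adjusted p = 0.0580). Tbx1 differed by 0.73 (SE 0.171, adjusted p = 0.0768), Sox9 by 0.31 (SE 0.122, adjusted p = 0.219) and Id4 by 0.26 (SE 0.179, adjusted p = 0.472). For Sox9, Tbx1 and Id4 the marked cells of AG mouse 1 were below its other gated cells, at 2.45 against 2.76 for Sox9, 0.721 against 0.735 for Tbx1 and 0.355 against 0.487 for Id4.

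The call on Lgr5 passed in 10 of 19 alternatives. It was lost without any one of the 4 NO_AG and AG mice (adjusted p 0.157 to 0.256), with every cell thinned to 1500 UMIs (0.108), in cells with at least 3000 UMIs (0.0617), with a pseudocount of 0.02 (0.0718), with no filter on low genes (0.124) and with the replicate number as a block (0.0590). Sfrp1 passed in 7 of the 19, cells with at least 3000 UMIs (0.0060) and the block (0.0157) among them, and Lhx2 in 5, Tbx1 in 3, Sox9 in 2 and Id4 in none. With marked cells defined by at least 2 of 6 bulge markers, all members but Id4 (0.0569) passed. Without both AG_CPI mice, which have 60 and 94 marked cells, Lgr5 (0.0114), Lhx2 (0.0218) and Sfrp1 (0.0113) passed. Without AG_CPI mouse 1 alone, Lgr5 (0.0040), Lhx2 (0.0116), Tbx1 (0.0215) and Sfrp1 (0.0024) passed, and without AG_CPI mouse 2 alone all members but Id4 did. Marked cells were also the deeper ones in every mouse, with a median of 3713 to 7348 UMIs against 2184 to 6133 in the other cells. Whether the difference between marked and other cells itself differed between AG and NO_AG was tested, and no member passed (adjusted p = 1.0 for each), as for all other genes (0%), where 86 (1.03%) had an unadjusted p under 0.05.

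**Figure D3:**
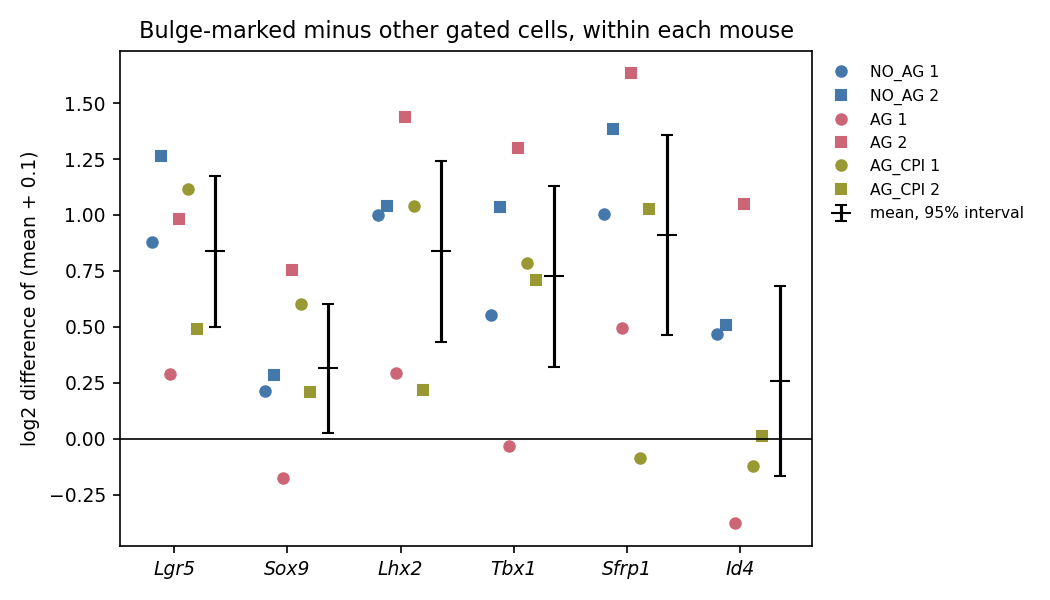
Log2 difference of (mean + 0.1) between bulge-marked and other gated cells of the same mouse, for each member (points are the 6 mice, bars the fitted mean with its 95% confidence interval). Lgr5 and Lhx2 lie above 0 in all 6 mice, and the mean of Lgr5 is 0.84.

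Genes of the lists were read in the same comparison. Of 7 bulge genes tested besides Cd34 and Postn, 3 were higher in marked cells and 1 was lower. Ptn, which codes for the growth factor pleiotrophin, differed by 1.34, Dkk3 by 1.09 and Nfatc1, a factor of bulge quiescence, by 0.63, while the transcription factor gene Foxc1 differed by −0.65. Of 9 upper follicle genes, 4 were lower, among them Cst6 (−2.87), Defb6 (−2.12) and Krt79 (−1.86), and 2 were higher, among them Sostdc1 (0.41). Of 7 suprabasal genes 3 were lower, namely Krtdap (−0.97), Sbsn (−0.72) and Ivl (−0.68). Of 4 interfollicular basal genes, Thbs1 was higher (1.02) and Avpr1a lower (−0.59). Among the BMP genes, Grem1 (1.20) and Fst (1.33), which both code for secreted antagonists, and Id3 (0.88) were higher. Gas1, a Hedgehog co-receptor, was higher (0.87), as were the Wnt receptor gene Fzd2 (0.79) and Lgr6 (0.72). No gene of the class I and interferon list, the cycling list or the stress keratin list passed. Of the 20 list genes that passed here, Ptn and Cst6 were the ones whose call held in all 19 alternatives. Without any one of the NO_AG and AG mice, 1 of the bulge genes passed, 2 to 4 upper follicle genes passed as lower, 0 or 1 suprabasal gene passed as lower, 0 or 1 BMP gene passed as higher, and no Wnt, Hedgehog or interfollicular basal gene passed.

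The gated cells were also split by other markers, in classes that overlap with the bulge-marked cells. Sox9 was higher in cells with a UMI of Krt79 or Lrig1 in 6 of 6 mice, with a median over mice of 2.68 against 1.60, whereas Lgr5 and Sfrp1 were lower there in 6 of 6 mice. Of all 8364 genes, 8.33% were higher and 6.44% lower in such cells of each mouse. Sfrp1 had a median of 1.20 in those cells against 1.98 in the rest of the gate. In suprabasal-marked cells, with at least 20 UMIs of Krt1 and Krt10 per 10000, all 6 members were lower in 6 of 6 mice, as were 11.9% of all genes. Cells with a UMI of Mki67 or Top2a, which mark division, showed no common direction, since Sox9 and Id4 were higher there in 1 of 6 mice, Tbx1 and Sfrp1 in 3, and Lgr5 and Lhx2 in 4. These comparisons are descriptions over mice, with no test.

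Gated cells were also counted by how many of the 6 genes they carried. At least 1 member was detected in 62.6% and 72.6% of gated cells in the NO_AG mice, 67.4% and 50.5% in the AG mice, and 60.4% and 52.6% in the AG_CPI mice. Exactly 1 member was detected in 33.0% and 29.1%, 38.6% and 28.2%, and 43.6% and 34.0%, in the same order of mice. At least 4 members were detected in 14.1% and 23.1%, 11.9% and 6.46%, and 2.68% and 4.35%. In gated cells with at least 3000 UMIs the group means of the share with any member were 69.6%, 71.4% and 71.0% for NO_AG, AG and AG_CPI. The share with any member overlapped between the groups, while the share with at least 4 was highest in both NO_AG mice and lowest in both AG_CPI mice. That share is not given at equal depth. Gated cells had a median of 5174 and 5856.5 UMIs in the NO_AG mice and 3629 and 2745 in the AG_CPI mice. All 6 members were detected in 96 of 2287 and 82 of 1822 gated cells of the NO_AG mice. The counts were 32 of 941 and 21 of 1688 in the AG mice, and 0 of 149 and 2 of 253 in the AG_CPI mice.

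Cells with Lgr5 had a UMI of Lhx2 in a median of 73.9% of cases over the 6 mice, against 9.05% of cells without Lgr5. For Tbx1 the shares were 75.5% against 11.4%, for Sfrp1 73.1% against 24.1%, and for Sox9 75.9% against 38.4%. Cells with Lhx2 carried Tbx1 in a median of 66.1% against 9.11%. For every pair that did not involve Id4, a member was detected in a higher share of cells with the other member than of cells without it in 6 of 6 mice, and for the pairs with Id4 in 5 or 6 mice. Depth is shared by the genes of a cell and raises all such shares, so they are descriptions. Shares for pairs of other genes are not given here for comparison.

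**Figure D4:**
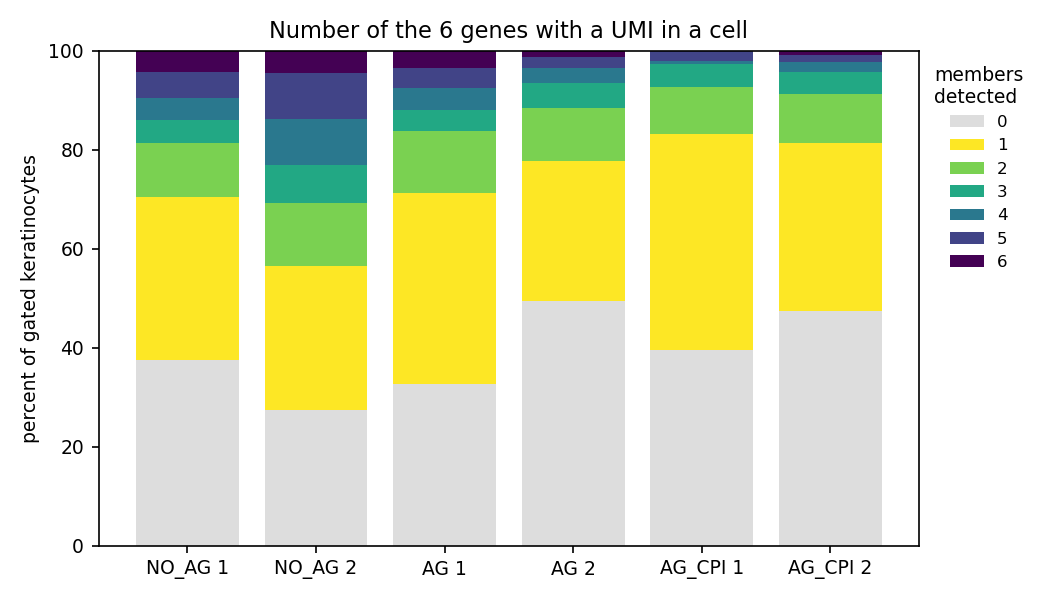
Share of gated keratinocytes (%) in which 0 to 6 of the members had a UMI, for each mouse. Cells with at least 4 members make up 23.1% in NO_AG mouse 2 and 2.68% in AG_CPI mouse 1.

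By correlation of the deposited log10 values over the gated cells of a mouse, averaged over the 6 mice, Mfap2 (0.384), Gm973 (0.363) and Igfbp7 (0.334) were most like Lgr5. Shisa2 (0.385), Scrg1 (0.385) and the Wnt receptor gene Fzd2 (0.339) were most like Sfrp1. For Lhx2 these were Gm973 (0.445), Shisa2 (0.413) and Hmcn1 (0.403), and for Tbx1 Mfap2 (0.415), Shisa2 (0.390) and Igfbp7 (0.387). Sox9 was most like Krt17 (0.354), a keratin of the follicle, Barx2 (0.351) and Cdc42ep3 (0.285), none of which were among the first 3 of another member. Id4 was most like Fzd2 (0.318), Edn2 (0.315) and Nrep (0.315). The cells of a mouse share a library, and the part of low counts in the size of these correlations was not tested.

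Which other genes went with the members was asked by comparing, in each mouse, member-rich cells (UMIs of at least 2 members) with member-free cells. There were 677 and 791 member-rich cells in the NO_AG mice, 271 and 377 in the AG mice, and 25 and 47 in the AG_CPI mice, against 856, 500, 307, 835, 59 and 120 member-free cells. Of 8364 genes, 1020 passed (12.2%), of which 480 (5.74%) were higher and 540 (6.46%) lower in member-rich cells. Without any one of the NO_AG and AG mice 169 to 363 genes passed, and without AG_CPI mouse 1 or 2 there were 3110 or 3499. The members chose the cells, so their own values are no result here.

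The 5 higher genes with the smallest p were Rflnb (2.30), Tagln (3.25), Col4a1 (2.33), Mfap2 (2.66) and Igfbp7 (2.51). Tagln codes for an actin-binding protein, Col4a1 for a chain of basement membrane collagen and Mfap2 for a microfibril protein. Tagln stood at 1.89 and 2.26 in the member-rich cells of the NO_AG mice, 0.644 and 1.13 in those of the AG mice, and 1.37 and 0.727 in those of the AG_CPI mice, with a median of 0.0239 in member-free cells. The 5 lower genes were Ly6d (−1.46), Stfa3 (−2.38), Stfa1 (−2.28), Fgfbp1 (−1.22) and Aldoa (−0.90). Stfa1 and Stfa3 belong to a family of near-identical genes between which reads may be split, and the symbol Aldoa heads 2 columns of the files, so these 3 are uncertain. Each of the 10 passed in all 19 alternatives.

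Of 9 bulge genes tested, 8 were higher in member-rich cells, with a median of 1.0. Without any one of the NO_AG and AG mice 3 or 4 passed, and none of the 9 was lower in any of those settings. Ptn stood at 7.0 and 4.66 in member-rich cells of the NO_AG mice, 7.10 and 4.19 in those of the AG mice, and 8.38 and 7.24 in those of the AG_CPI mice. In member-free cells it stood at 1.42, 1.40, 1.69, 1.48, 0.868 and 1.15, so the classes did not overlap. The log2 difference was 2.02 (SE 0.117, adjusted p = 0.00032). Cd34 (1.91), Dkk3 (1.58) and Tcf7l1 (1.44), a transcription factor of the Wnt pathway that represses its targets in stem cells, were the next 3.

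The signalling lists moved in part. Of 25 Wnt genes, 8 were higher and 3 lower. Without any one of the NO_AG and AG mice 4 to 6 were higher and 1 or 2 lower, where Fzd2, Dkk3, Tcf7l1, Tcf7l2 and Wnt4 passed each time, and without AG_CPI mouse 1 or 2 there were 11 higher and 6 lower. Fzd2 had the smallest p, at 1.29 and 1.12 in member-rich cells of the NO_AG mice, 0.978 and 0.875 in those of the AG mice, and 0.525 and 0.734 in those of the AG_CPI mice, against at most 0.133 in member-free cells of any mouse. Its difference was 2.38 (SE 0.136, adjusted p = 0.00032), and Dkk3, Tcf7l1 and Tcf7l2 (1.04) followed. The 3 lower Wnt genes were the ligands Wnt3 (−1.85), Wnt4 (−1.31) and Wnt10a (−1.05), which are named after their values were seen. Of 6 Hedgehog genes, 4 were higher, namely the receptor gene Ptch1 (1.42), Gas1 (0.80) and the transcription factors Gli1 (1.43) and Gli2 (1.12), with a median of 0.96. With 1 of the NO_AG or AG mice left out, 1 to 3 of them passed, where Ptch1 passed each time and Gli2 never did. Of 11 BMP genes, Fst (1.32), Grem1 (1.82) and Id1 (0.64) were higher and the ligand Bmp4 (−0.87) was lower. The BMP count was 1 to 3 higher without any one of the NO_AG and AG mice, and 6 or 5 without AG_CPI mouse 1 or 2. Hoxc13 (1.5) was the 1 of 4 hair germ genes that passed, and none of 6 cycling genes did.

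Of 7 suprabasal genes 5 were lower in member-rich cells and none was higher, with a median of −1.37. Without any one of the NO_AG and AG mice 2 to 4 passed as lower, where Krtdap and Dmkn passed each time and Krt10 never did. Sbsn, which did not pass, was higher in 4 of 6 mice. Krt1, a keratin of the suprabasal layers, stood at 0.974, 2.80, 1.92, 1.89, 5.85 and 1.95 in member-rich cells, from NO_AG mouse 1 to AG_CPI mouse 2, against 5.80, 6.96, 12.7, 6.04, 18.1 and 25.3 in member-free cells of the same mice. It was lower in 6 of 6 mice, with a log2 difference of −2.36 (SE 0.277, adjusted p = 0.0041). Dmkn (−0.72), Krtdap (−1.49) and Mt4 (−2.69) were the other suprabasal genes with the smallest p. Of 7 stress keratin genes, Sprr1b (−1.55) and Krt16 (−2.05) were lower, while Krt17 (1.17), which is also a keratin of the follicle, was higher. The metallothionein genes Mt1 (−0.84) and Mt2 (−0.90) were lower and Thbs1 (1.07) was higher among 4 interfollicular basal genes. Of 9 upper follicle genes, Krt17 and Sostdc1 (0.46) were higher and none was lower. With 1 of the NO_AG or AG mice left out, Sprr1b and Krt16 passed each time, while Krt17, Mt1, Mt2 and Thbs1 lost the call at least once and Sostdc1 each time.

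Of 23 class I presentation and interferon genes, 11 were lower in member-rich cells, none was higher and 12 did not pass, with a median of −0.46. Isg15 and Ifi27l2a, which did not pass, were above their level in member-free cells in 4 of 6 mice. That count was 1 without NO_AG mouse 1 or AG mouse 1, 4 without NO_AG mouse 2, 7 without AG mouse 2 and 15 without either AG_CPI mouse, and without AG_CPI mouse 1 another 2 genes were higher. B2m, the light chain of class I molecules, stood at 9.69 and 7.51 in member-rich against 15.9 and 16.3 in member-free cells of the NO_AG mice. In the AG mice it stood at 19.1 and 18.8 against 24.7 and 20.9, and in the AG_CPI mice at 20.2 and 17.6 against 20.1 and 20.2. The log2 difference after scaling was −0.58 (SE 0.0696, adjusted p = 0.00449), followed by Tapbp (−0.65), the class II gene H2-Ab1 (−1.13) and Psmb8 (−0.65). Beside this, summed myeloid markers were lower in member-rich cells of 6 of 6 mice (median 5.0 against 8.35, mainly from Cd74 at 4.37 against 7.49) and T cell markers in 5 of 6 (1.15 against 1.78). Cd74 is itself among the 11 genes called lower, so the myeloid sum is not separate from that count. Lyz2, C1qa and Csf1r were higher in member-rich cells of 2 of 6 mice and C1qb in 3. The part of the myeloid and T cell markers in the result was not tested.

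**Figure D5:**
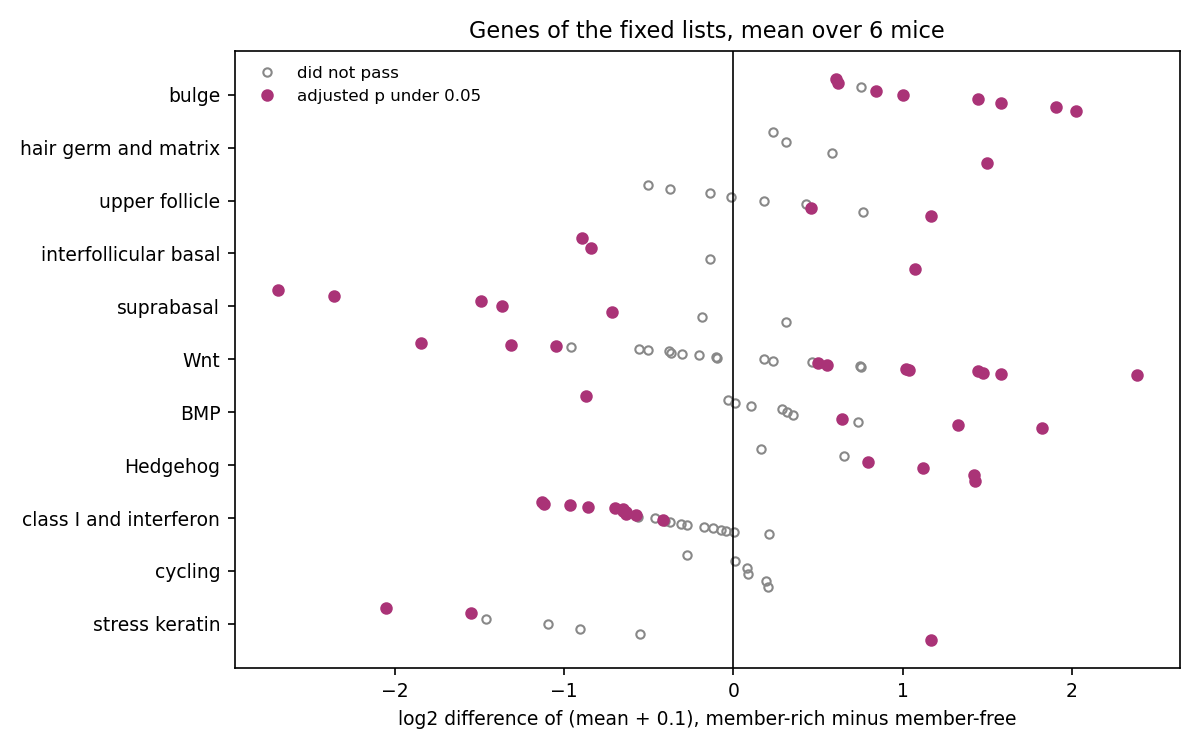
Log2 difference of (mean + 0.1) between member-rich and member-free cells, averaged over the 6 mice, for the tested genes of each list (points are genes, filled where they passed the test over all genes). The 9 bulge genes lie to the right of 0, with a median of 1.0, and most class I and interferon genes lie to the left, with a median of −0.46.

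The balance of these calls changed with the scaling, as it did with other settings. With the deposited scaling alone, the median over all genes was 0.080 in place of −0.036, and 755 of 1078 genes that passed were higher, against 480 of 1020. In that setting 7 of the class I and interferon genes were lower and none higher, 4 suprabasal genes were lower and 1 higher, and 8 bulge genes were higher. With every cell thinned to 1500 UMIs, Fst (−0.21), Id1 (−0.83), Sostdc1 (−0.29) and Foxc1 (−0.90) turned below 0. Member-rich cells were also deeper in every mouse, with a median of 5170 to 7319 UMIs against 1924.5 to 5626 in member-free cells. The 4 mural cell markers were higher in member-rich cells of 6 of 6 mice (summed median 1.90 against 0.0829). These came from Tagln and Acta2 (0.714 against 0.0512), while Rgs5 was at 0 in member-rich cells of all 6 mice and Myh11 reached at most 0.0141.

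Whether the difference between member-rich and member-free cells differed between AG and NO_AG was tested in the same fit. No gene passed by limma (0%), and 183 (2.19%) had an unadjusted p under 0.05. Ptn differed by −0.20 and Fzd2 by −0.02 between the groups in this sense, neither of them passing.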

How the data were processed

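Single cells of skin from 6 mice were measured with the 10x Genomics 5′ kit. Reads were processed with Cell Ranger 3.1 on mm10, per the submitters' processing notes, and the authors deposited log10(1 + UMIs per 10000 UMIs of the cell) for 16158 genes. The deposited log10 values were turned back into UMIs, which came out whole (tolerance 0.05) for every value. No deposited file flags doublets, so they were kept, and removal of the cells with the highest Scrublet scores was an alternative. The file headers name no annotation, and counting of overlapping genes by strand is not given in the sources used here.

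Mouse levels are means over gated cells, scaled by trimmed means (trim 0.3 and 0.05), with 0.1 added before log2. Genes needed 10 UMIs in the gate and a mean of 0.1 in 2 mice. The 6 mice shared 1 fit (limma 3.58.1 with trend, R 4.3.3, 2-sided, threshold 0.05). Bulge-marked and member-rich cells were tested on differences within a mouse, for mice with at least 10 cells of both kinds. The scripts were tested on simulated data. Wilson intervals of shares cover counting error only, and intervals of log2 differences come from the fit over mice. The replicate numbers of the labels do not pair mice (correlations of deviations 0.168, 0.133 and 0.0876). Members and lists were chosen with earlier results of these data known. The 6 members are always named. From each list up to 4 genes that passed are named, by smallest p; the member-rich comparison adds 5 genes higher and 5 lower in every mouse, leaving out sex-linked, mitochondrial and ribosomal genes, and each member has its 3 most like genes.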

Additional observations from a re-analysis of the deposited data

Results flagged for a closer look

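Ddx3y, a gene of the Y chromosome, had 26 UMIs in the gated keratinocytes of AG_CPI mouse 1, in 15.4% of its cells, and 0 in those of the other 5 mice. Xist, the RNA of the inactive X chromosome, was detected in 2.01% of the gated cells of that mouse and in 66.2% to 88.7% of those of the others. The sex of the mice is not in the labels used here, and these genes are described in no comparison of the report. Xist and the other genes of the X chromosome, 236 in all, stay among the 8364 genes tested, while no gene of the Y chromosome passed the filter on low values. The values of the members without this mouse stand beside both comparisons with AG_CPI above.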

How the results depend on the processing

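The number of genes that passed was recomputed under 19 alternatives for each group comparison and each comparison within mice, and the cause of a change was not tested. In leaving out 1 mouse, a lone mouse of a group was assumed to vary like the other groups. For AG against NO_AG the 39 genes became 2 with no filter on low values, 69 with summed UMIs, 59 in cells with at least 3000 UMIs and 11 to 99 with 1 mouse left out, where 71 of the 99 (without AG mouse 1) were higher against 38 of 39. For AG_CPI against AG the count was 0 to 3 with 1 mouse left out (3 without AG mouse 1) and 0 in each other setting. For AG_CPI against NO_AG the 22 genes, 18 of them higher, became 36 with a pseudocount of 0.02, 5 with 0.5, 0 with no filter, 13 after thinning to 1500 UMIs, 122 (73 higher) with summed UMIs, 63 (37 higher) without cells that carried other-type markers, 89 (60 higher) in cells with at least 3000 UMIs, and 3 (without NO_AG mouse 1) to 129 (without AG mouse 2, 74 higher) with 1 mouse left out. For bulge-marked cells the 245 genes became 9 with no filter, 101 (20 higher) after thinning, 555 with at least 2 of 6 bulge markers, 407 without both AG_CPI mice, and 15 (without AG mouse 1) to 2756 (without AG_CPI mouse 2) with 1 mouse left out. For member-rich cells the 1020 genes became 532 (326 higher) with no filter, 3644 (552 higher, without AG_CPI mouse 1, which had too few cells) after thinning, 499 (296 higher) with at least 1 member, 1745 without both AG_CPI mice, and 169 (without AG mouse 1) to 3499 (without AG_CPI mouse 2) with 1 mouse left out. The difference of that contrast between AG and NO_AG had 1 gene after thinning, 4 without both AG_CPI mice and 0 to 5 with 1 mouse left out. The share of cells with any member was 43.8%, 37.0% and 33.3% after thinning in NO_AG, AG and AG_CPI, and 71.4% in AG and 71.0% in AG_CPI in cells with at least 3000 UMIs. With 1 mouse left out it was that of the other mouse of the group.

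Of the members, values that turned sign were never called. Sox9 in AG against NO_AG ran from −0.52 to 0.0595 with 1 mouse left out. In AG_CPI against AG, Lgr5 ran from −1.17 to 0.12, Sox9 from −0.57 to 0.00684 and Tbx1 from −0.51 to 0.15. In member-rich cells thinning turned Foxc1 to −0.90, Fst to −0.21, Id1 to −0.83 and Sostdc1 to −0.29. Member values stayed on their side of the threshold and of 0 in 113 of 114 alternatives for AG against NO_AG, 111 of 114 for AG_CPI against AG, 104 of 114 for AG_CPI against NO_AG and 88 of 114 for bulge-marked cells.

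With the replicate number as a replicate block the counts were 49, 0 and 50 (34 higher) for the group comparisons, 124 for bulge-marked cells, where the call on Lgr5 was lost (adjusted p = 0.0590) and one on Sfrp1 gained (0.0157), 898 for member-rich cells and 0 for their difference between groups. The 149 and 253 gated cells of the AG_CPI mice limit the values of rare members there, as do the 4 and 6 cells with Lgr5 and Id4 in AG_CPI mouse 1.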
